A study of Homo sapiens with 24 samples.

Results

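The HOX cluster genes of 3 triple-negative breast cancer (TNBC) cell lines were examined by RNA-Seq. Members were chosen by symbol alone, as every gene named HOX followed by a cluster letter from A to D and a paralog number. This gave 39 genes, 11 in HOXA, 10 in HOXB, 9 in HOXC and 9 in HOXD, of 66659 distinct symbols over the 4 deposited tables.

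The 24 libraries form 8 groups of 3 replicates. Hs578T and HCC70, both WT established TNBC lines, were each sorted into BCSCs, carrying the CD24-CD44+ and ALDH+ phenotypes of stem-like cells, and non-BCSCs lacking both. MDA-MB-231, a further established TNBC line, carried control sgRNA (sgCtrl) or KIF20A sgRNA #1 (KIF20A sg1, labelled as knockdown) in one arm, and empty control vector (EV) or KIF20A overexpression (OE) in the other. KIF20A is a mitotic kinesin, and the study asked what it does in BCSCs. The sources used give neither the promoter of the overexpression vector nor whether any line was a single clone. The labels call the replicates biological but do not say that they came from separate cultures, so p-values measure the spread between these samples, which may be technical. Each line and each MDA-MB-231 arm is a batch of its own in the labels, so differences in level between tables cannot be told apart from batch.

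HOX genes encode homeodomain transcription factors that give cells their position along the body axis. They lie in 4 clusters, and genes with the same paralog number in different clusters descend from a common ancestor. Low-numbered (anterior) genes lie at the 3′ end of each cluster and are used towards the head, high-numbered (posterior) genes lie at the 5′ end and are used towards the tail and the limb tips. Cell lines keep a set of active HOX genes, a HOX code, and several members, among them HOXA9, HOXB9 and HOXD9, are known to act in mammary gland development.

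By GENCODE 44 on GRCh38, HOXA spans chromosome 7 from 27092993 to 27200091 on the minus strand and HOXB chromosome 17 from 48528526 to 48728750 on the minus strand. HOXC spans chromosome 12 from 53938831 to 54056030 and HOXD chromosome 2 from 176092721 to 176190907, both on the plus strand. Exons of 25 of the 39 genes share bases with another gene, 16 on the same strand and 20 on the opposite strand. For these genes the counting could split or share reads, and its strand setting was not given in the sources used here.

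RefSeq promoter windows were found for 20 of the 39 genes, 27 windows in all. The 250 bases before the start of 4 genes are shown because their levels set the lines and arms apart: HOXD1, HOXD4 and HOXD13 from the 3′ part to the 5′ end of 1 cluster, and HOXA13, the leading HOXA gene of MDA-MB-231. Each runs 5′ to 3′ on the strand of its gene, and capitals mark CG dinucleotides.
HOXD1: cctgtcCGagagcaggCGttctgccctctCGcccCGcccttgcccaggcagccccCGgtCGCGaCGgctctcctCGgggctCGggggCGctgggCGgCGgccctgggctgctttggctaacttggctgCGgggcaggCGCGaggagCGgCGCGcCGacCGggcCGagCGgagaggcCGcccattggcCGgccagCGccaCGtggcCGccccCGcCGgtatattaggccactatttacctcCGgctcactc
HOXD4: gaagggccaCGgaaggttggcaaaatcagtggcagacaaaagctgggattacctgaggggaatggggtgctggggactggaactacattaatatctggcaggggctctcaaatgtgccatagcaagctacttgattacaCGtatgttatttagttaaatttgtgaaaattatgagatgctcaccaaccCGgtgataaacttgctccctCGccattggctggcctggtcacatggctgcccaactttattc
HOXD13: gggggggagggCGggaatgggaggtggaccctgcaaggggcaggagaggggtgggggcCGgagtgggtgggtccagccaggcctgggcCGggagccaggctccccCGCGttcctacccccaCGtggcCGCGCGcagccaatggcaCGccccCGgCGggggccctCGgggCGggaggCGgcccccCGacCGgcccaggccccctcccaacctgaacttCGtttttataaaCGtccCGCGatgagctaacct
HOXA13: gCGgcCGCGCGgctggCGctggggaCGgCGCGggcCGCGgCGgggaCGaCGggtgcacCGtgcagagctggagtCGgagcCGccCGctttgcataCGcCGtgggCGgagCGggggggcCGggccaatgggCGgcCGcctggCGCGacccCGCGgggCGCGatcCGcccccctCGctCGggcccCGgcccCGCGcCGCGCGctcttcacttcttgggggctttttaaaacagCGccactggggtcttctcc

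The windows lie on GRCh38.p14, that of HOXD1 at chr2:176188418-176188667 (plus strand), that of HOXD4 at chr2:176151300-176151549 (plus strand), that of HOXD13 at chr2:176092471-176092720 (plus strand) and that of HOXA13 at chr7:27200092-27200341 (minus strand). No annotated exon lies in those of HOXD4, HOXD13 and HOXA13, while an exon of the antisense RNA HAGLR lies in that of HOXD1. The window of HOXA13 holds 40 CG dinucleotides, that of HOXD1 31, that of HOXD13 21 and that of HOXD4 4, against a median of 11 over 35116 promoter windows and 19 over the 27 of HOX genes. Of the 4, the window of HOXD4 alone was below the median of all windows. The motif TGATTNAT, bound by HOX proteins together with PBX proteins, was searched on both strands. It was in the windows of HOXA2 and HOXD11 and in 2.48% of all windows.

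Depth, as reads recovered from the deposited values, was 24681218 to 33715701 per library in the sorted lines, 41424338 to 51018667 in the sgRNA arm and 15971297 to 22182293 in the overexpression arm. KIF20A stood at 153, 173 and 156 CPM with sgCtrl and 122, 145 and 91.1 CPM with KIF20A sg1, a fall that did not pass the test (log2 fold change -0.45 ± 0.16 SE, adjusted p = 0.69). It stood at 101, 143 and 124 CPM with EV while the libraries labelled KIF20A OE held 1348, 269 and 896 CPM of it (adjusted p = 0.0025). Those 3 libraries go against the label MDA-MB-231. CD44, which MDA-MB-231 cells carry in quantity, was at 788, 615 and 523 CPM with EV and 0.125, 0.316 and 1.23 CPM in them, and all 10 mesenchymal markers examined were lower, beside 23.4% of all genes. Of these 10, 7 had a mean of at least 1 CPM in both groups, a set for which no share over all genes is given. IRS4, typical of fetal kidney lines, had 0 reads with EV, but 1750, 1219 and 1744 CPM in them. Of 11 fetal kidney or neuronal genes 9 were higher and 1 lower, beside 46.2% and 23.4% of all genes, but each of the 9 had an EV mean under 1 CPM and reached the minimum for testing only through the group where it was high, so its direction was fixed by that minimum. They are called the libraries labelled KIF20A OE throughout, and a difference from EV there cannot be told apart from a difference between kinds of cell.

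The HOX code was read as the members with a group mean of at least 1 in the unit of the table, TPM in the sorted lines and CPM in MDA-MB-231. CPM is not scaled by gene length, so the cutoff is unlike in these units. Counts of members are not comparable between the sorted lines and MDA-MB-231. Hs578T expressed 24 members as non-BCSCs and 22 as BCSCs, HCC70 21 and 20, and MDA-MB-231 5 with either sgRNA and 12 with EV. HOXB3, at 0.324 CPM per kb of exon with sgCtrl and 0.670 with EV, was the only member expressed in each of these 7 groups. HOXB1, HOXB13, HOXD8, HOXD9, HOXD10, HOXD11 and HOXD12 were expressed in none of them. Genes not listed were counted as not expressed. HOXD8, HOXD9, HOXD10, HOXD11 and HOXD12 are not listed for Hs578T or HCC70. HOXB1 and HOXB13 are not listed for HCC70, nor is HOXB1 for EV. These genes have no value there.

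**Figure D1:**
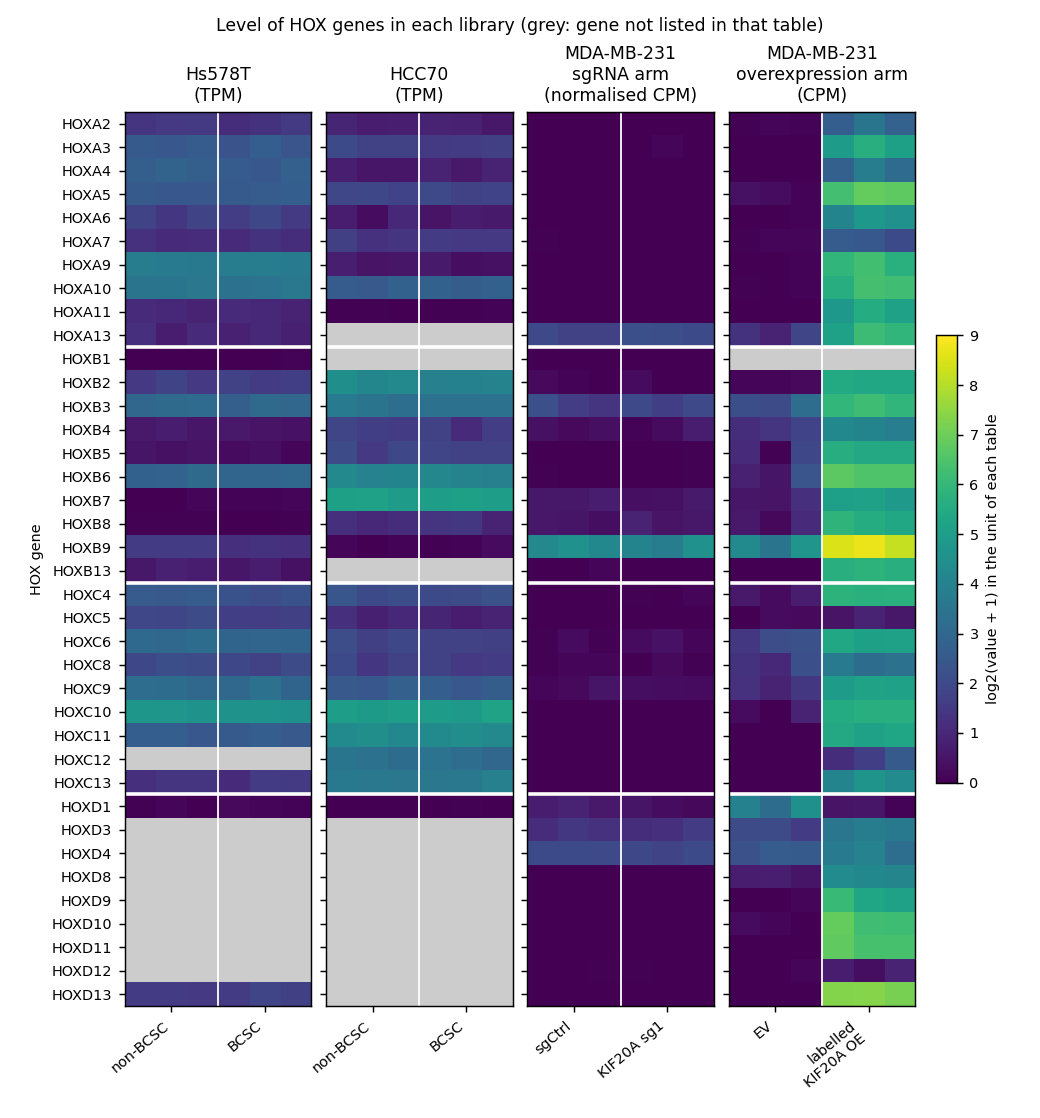
Level of the HOX genes reported here (rows, by cluster and paralog number) in each of the 24 libraries (columns), as log2(value + 1) in the unit of each table, with grey for genes that a table does not list. The sorted lines use the A, B and C clusters, the sgRNA arm of MDA-MB-231 a few genes led by HOXB9, and the libraries labelled KIF20A OE genes of all 4 clusters.

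Hs578T, a mesenchymal line (VIM between 3661 and 4016 TPM in its 6 libraries), used HOXA and HOXC. HOXA supplied 38.4% of its summed HOX level in TPM as non-BCSCs and HOXC 44.8%, HOXB 15.3% and HOXD 1.54%, and in BCSCs these shares were 40.1%, 42.9%, 15.0% and 1.96%. The posterior paralogs 9 to 13 held 53.1% of the level in non-BCSCs and 54.1% in BCSCs. Of the 39 members 31 were listed, and those without an entry were HOXC12 and the 7 HOXD genes between HOXD1 and HOXD13.

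The highest HOX gene of Hs578T was HOXC10, at 26.4, 25.1 and 23.5 TPM in non-BCSCs and 23.2, 23.0 and 22.2 TPM in BCSCs. HOXC10 is a posterior gene active in the spinal cord and hindlimb of the embryo. HOXA9, known from blood stem cells and leukemia, followed at 13.1, 12.4 and 11.3 TPM in non-BCSCs and 13.1, 13.0 and 12.0 TPM in BCSCs. Its neighbor HOXA10, a gene of uterine development, averaged 10.4 ± 0.45 TPM (SD, n = 3) and 10.2 ± 0.84 TPM. HOXA9 and HOXA10 share exon bases on the same strand with a common overlapping gene, so their separate levels are uncertain.

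HOXB3, a hindbrain gene, led the B cluster in non-BCSCs at 6.83, 7.70 and 7.94 TPM, against 5.61, 7.67 and 6.81 TPM in BCSCs. HOXB6 led it in BCSCs at 6.59, 6.70 and 7.13 TPM, against 5.89, 6.20 and 7.69 TPM in non-BCSCs. The ranges of both genes overlapped between fractions, so the order of the 2 is not resolved. HOXD13, which shapes the digits, was the only expressed HOXD gene at 2.03, 1.97 and 1.82 TPM in non-BCSCs and 1.94, 2.64 and 2.29 TPM in BCSCs.

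HCC70, a basal epithelial line by its KRT5 level of 4017 to 4479 TPM, used HOXB and HOXC nearly equally. HOXB supplied 44.5% and HOXC 44.9% of the summed level in non-BCSCs and 42.8% and 46.3% in BCSCs, and HOXA 10.6% and 10.9%. Paralogs 9 to 13 held 42.7% and 45.0%. Of the 39 members 28 were listed, and those without an entry were HOXA13, HOXB1, HOXB13 and 8 HOXD genes. HOXD1, the only HOXD gene listed, rested on 1 read in 1 BCSC library.

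HOXB7, a gene linked to breast cancer invasion, was the highest member of HCC70 at 33.5, 34.8 and 30.3 TPM in non-BCSCs and 31.4, 33.8 and 31.8 TPM in BCSCs. In Hs578T the same gene stayed at or under 0.105 TPM in every library. HOXC10 was close to HOXB7 in HCC70, at 31.5, 28.6 and 31.5 TPM and 29.4, 28.5 and 35.3 TPM, and the ranges of the 2 genes overlapped in BCSCs and in non-BCSCs. The 5′ end of the C cluster was also in use. HOXC11 averaged 18.9 ± 1.63 TPM in non-BCSCs and HOXC13, a hair and nail gene, 11.1 ± 0.299 TPM. HOXC12, not listed for Hs578T, averaged 9.31 ± 1.13 TPM in HCC70 non-BCSCs (SD, n = 3 for each). HOXA10 led the A cluster at 5.20, 4.64 and 5.89 TPM and 5.87, 5.36 and 5.94 TPM.

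The code differed between the lines more than between fractions of a line. Of the 24 members expressed in Hs578T non-BCSCs, 16 (66.7%) were among the 21 of HCC70 non-BCSCs, which is 76.2% of the latter. HOXA2, HOXA4, HOXA6, HOXA9, HOXA11, HOXA13, HOXB9 and HOXD13 were expressed in the former alone, and HOXB4, HOXB5, HOXB7, HOXB8 and HOXC12 in the latter alone. Across the 27 members listed in every table, Spearman's rho between BCSC and non-BCSC levels was 0.98 in Hs578T and 0.99 in HCC70, and 0.32 between the non-BCSCs of the 2 lines. The genes of a pair of groups share their libraries and lengths, so these are descriptions. The difference between lines is also one between batches and was not tested.

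The sorted fractions were then compared to see whether BCSCs carry another HOX code. They carried nearly the same one. In Hs578T, 22 members reached a mean of 1 TPM over the 6 libraries and were tested by limma on log2(TPM + 1). HOXC4 was lower in BCSCs and was the only member called at an adjusted p under 0.05, beside 7.15% of all 13324 genes tested, 2.9% higher and 4.26% lower. At an unadjusted p under 0.05 stood 4 members, beside 22.5% of all genes. In bulk RNA, fewer cells that use a gene and less RNA of it per cell cannot be told apart.

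HOXC4, the most anterior gene of its cluster, was at 5.06, 4.73 and 5.08 TPM in non-BCSCs and 3.86, 3.34 and 3.86 TPM in BCSCs. The fractions did not overlap, and the log2 fold change was -0.35 ± 0.08 SE (adjusted p = 0.035 by limma). The call was lost when any 1 of the 6 libraries was left out, with adjusted p between 0.058 and 0.11, with no minimum (0.066), with the replicate block (0.063) and with DESeq2 (adjusted p = 0.15).

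Its cluster neighbors were also low in BCSCs without passing the test. HOXC5 was at 2.73, 2.64 and 3.20 TPM in non-BCSCs and 2.15, 2.10 and 2.26 TPM in BCSCs, with no overlap (log2 fold change -0.28 ± 0.09 SE, adjusted p = 0.11). HOXC6, known from mammary tissue, was at 7.36, 7.20 and 8.13 TPM and 6.50, 6.71 and 6.39 TPM, again without overlap (-0.18 ± 0.06 SE, adjusted p = 0.14). HOXC4, HOXC5 and HOXC6 all share exon bases on the same strand with a common overlapping gene in the annotation used here. With other genes on the same strand, HOXC4 shared 484 of 2767 exon bases, HOXC5 1084 of 1611 and HOXC6 557 of 3458. Whether the counting included that common gene was not tested, so HOXC4, HOXC5 and HOXC6 may not be separate measurements. HOXB9, a gene of thoracic levels, was at 2.03, 2.01 and 1.99 TPM in non-BCSCs and 1.30, 1.49 and 1.34 TPM in BCSCs. Its log2 fold change was as large as that of HOXC4 (-0.34 ± 0.09 SE, adjusted p = 0.065).

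Groups did not overlap for 6 of the 22 tested members, and for 29.0% of all genes tested. The others of these 6 were HOXC10, lower in each BCSC library (log2 fold change -0.13 ± 0.05 SE, adjusted p = 0.22), and HOXA5, higher in each (0.14 ± 0.07 SE, adjusted p = 0.29). HOXA5 was at 4.81, 4.42 and 4.50 TPM in non-BCSCs and 4.84, 5.17 and 5.46 TPM in BCSCs. The median log2 fold change of the 22 members was -0.05, against -0.01 for all genes tested. The 95% intervals of the 22 lay between -0.55 (HOXB9) and 0.40 (HOXD13). HOXA11 and HOXA13, counted as expressed only in non-BCSCs, averaged 1.02 and 1.04 TPM there and 0.963 and 0.845 TPM in BCSCs, within the spread of the libraries, and were under the minimum for testing.

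In HCC70, 0 of 20 tested members were called by limma, beside 2.83% of 13218 genes, 2.28% higher and 0.552% lower. edgeR and DESeq2 also called 0, and 2 members had an unadjusted p under 0.05, beside 23.7% of all genes. These were HOXB2, at 21.4, 16.5 and 17.8 TPM in non-BCSCs and 14.1, 14.5 and 15.2 TPM in BCSCs (log2 fold change -0.32 ± 0.10 SE, adjusted p = 0.11), and HOXA3, at 3.09, 2.44 and 2.46 TPM and 1.91, 1.93 and 2.22 TPM (-0.27 ± 0.11 SE, adjusted p = 0.19). HOXB2 is a hindbrain gene, and HOXA3 is needed for the thymus and parathyroid glands. These were also the only 2 members whose fractions did not overlap, against 30.9% of all genes. The 95% intervals of the 20 members lay between -0.67 (HOXB4) and 0.49 (HOXB8). HOXC4 was at 4.33, 3.09 and 3.53 TPM in non-BCSCs and 3.10, 3.13 and 3.69 TPM in BCSCs, overlapping ranges.

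**Figure D2:**
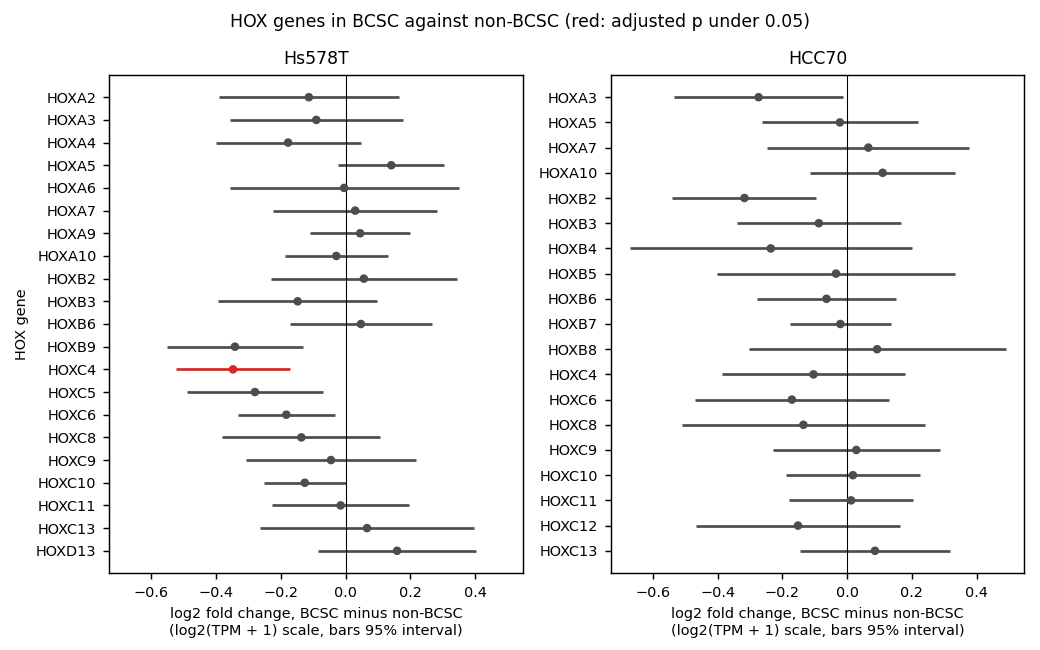
Log2 fold change (log2(TPM + 1) scale, BCSC minus non-BCSC) of the tested HOX genes reported here in Hs578T and HCC70, each with its 95% interval, and red for an adjusted p under 0.05. HOXC4 in Hs578T is the only red point, and most intervals hold 0.

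Whether the BCSC difference itself varied between the lines was tested for 15 members with a mean of at least 1 TPM in both. By limma 0 of them passed, beside 7.11% of 11668 genes, 1.49% higher and 5.62% lower, and 1 had an unadjusted p under 0.05, beside 26.8%. That member was HOXB2, whose difference was 0.37 ± 0.16 SE higher in Hs578T than in HCC70 on the log2 scale (adjusted p = 0.16). For HOXC4 the value was -0.24 ± 0.15 SE (adjusted p = 0.31), so its fall in Hs578T was not shown to differ from HCC70.

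KIF20A itself was higher in BCSCs of both lines (log2 fold change 0.45 ± 0.06 SE in Hs578T, adjusted p = 0.0072, and 0.80 ± 0.05 SE in HCC70, adjusted p = 0.0016), beside a HOX code that moved as little as described.

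In MDA-MB-231 the arm with sgRNAs tested whether the HOX code moves with KIF20A depletion. The table lists all 39 members, 18 of them at 0 in each of the 6 libraries: 8 HOXA genes, HOXB1, the 4 posterior HOXC genes from HOXC10 to HOXC13, and 5 HOXD genes. Summed per kb of exon, HOXB supplied 67.3% of the HOX level with sgCtrl, HOXD 27.1%, HOXA 4.06% and HOXC 1.55%.

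HOXB9 led, at 17.9, 22.5 and 17.6 CPM with sgCtrl and 15.7, 12.7 and 22.5 CPM with KIF20A sg1. HOXD4, an anterior gene, was at 3.05, 3.07 and 2.95 CPM and 2.88, 2.56 and 3.08 CPM. Both pairs of ranges overlapped. HOXA13, the gene at the 5′ end of its cluster and a gene of the limb tips and genital tract, was the only HOXA gene above 0.0403 CPM in either mean, at 2.94, 2.36 and 2.41 CPM and 3.59, 3.49 and 3.05 CPM. HOXB3 and HOXD3 averaged 2.40 ± 1.07 and 1.46 ± 0.259 CPM with sgCtrl (SD, n = 3). The highest HOXC gene was HOXC9, at 0.0878, 0.164 and 0.421 CPM and 0.251, 0.242 and 0.191 CPM.

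These 5 members with a mean of at least 1 CPM were tested, and limma, edgeR and DESeq2 each called 0, with 0 at an unadjusted p under 0.05 by limma. Of all 12852 genes limma called 0 (0.0%), with 899 (7.0%) at an unadjusted p under 0.05, edgeR called 0 and DESeq2 11. HOXA13 was the only one of the 5 whose groups did not overlap, against 13.0% of all genes (log2 fold change 0.30 ± 0.17 SE, adjusted p = 0.71). The others were HOXB9 at -0.21 ± 0.20 SE, HOXB3 at 0.16 ± 0.23 SE, HOXD4 at -0.07 ± 0.17 SE and HOXD3 at 0.03 ± 0.19 SE. Their 95% intervals reached from -0.65 (HOXB9) to 0.68 (HOXA13). That of HOXD4 was -0.44 to 0.30 and that of HOXD3 -0.39 to 0.45.

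HOXD1, with a role in sensory neurons, was under the minimum, at 0.658, 0.799 and 0.542 CPM with sgCtrl and 0.418, 0.222 and 0.143 CPM with KIF20A sg1, on 96 and 37 recovered reads. Each sgCtrl library was above each KIF20A sg1 library. Fitted with no minimum, its log2 fold change was -0.41 ± 0.11 SE (adjusted p = 0.86 by limma). It is named after its values were seen.

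**Figure D3:**
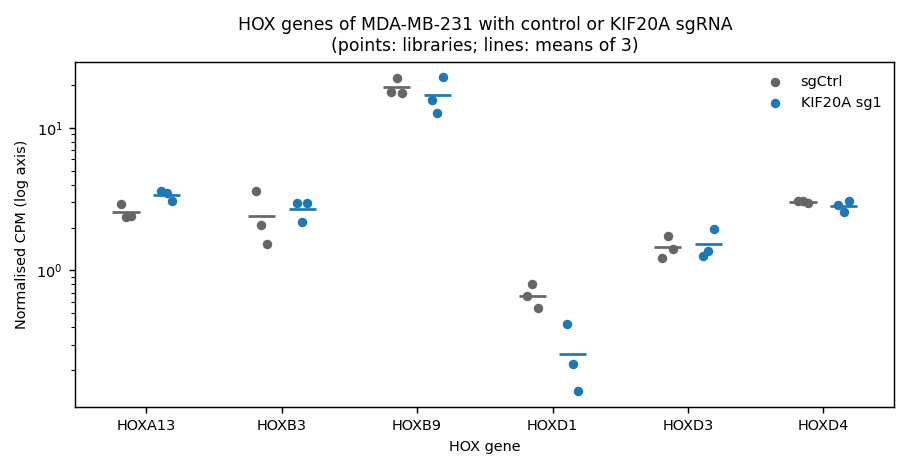
Normalised CPM (log axis) of 6 HOX genes in MDA-MB-231 with sgCtrl (grey) or KIF20A sg1 (blue), with points for libraries and lines for means of 3. HOXB9 is near 19.3 and 17.0 CPM, and the groups separate for HOXA13 and HOXD1.

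EV cells of the other MDA-MB-231 arm are also controls, and their code was wider. The 5 members expressed with sgCtrl were expressed with EV too, together with HOXB4, HOXB5, HOXB6, HOXC6, HOXC8, HOXC9 and HOXD1. The tables were normalized separately, so these levels are set side by side and not tested. HOXB9 was much alike, at 18.8, 9.91 and 24.6 CPM with EV. HOXD1 was at 14.6, 8.07 and 21.9 CPM with EV and averaged 0.666 ± 0.129 CPM with sgCtrl. HAGLR, antisense to it, was at 41.3, 32.5 and 50.6 CPM with EV and 10.5, 12.0 and 12.5 CPM with sgCtrl. HOXD1 shares 1134 of its 1886 exon bases with genes on the opposite strand, so reads of HOXD1 and HAGLR may not be separable.

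The EV libraries were uneven for HOX genes. EV replicate 3 was the highest of the 3 for 8 of the 9 HOXB members listed, 5 of 11 HOXA, 5 of 9 HOXC and 3 of 9 HOXD members. Among those listed, 1 HOXB, 4 HOXA, 3 HOXC and 2 HOXD members were at 0 in every EV library and could not be highest in any. Of the members highest in EV replicate 3, HOXA6 and HOXA9 rested on 1 EV read each and HOXA10, HOXD9 and HOXD12 on 2. No share over all genes is given either. Whether the skew was particular to HOXB therefore cannot be told from these counts. HOXB6 was at 0.762, 0.435 and 4.17 CPM and HOXB5 at 1.09, 0.0483 and 2.88 CPM. IRS4 was at 0 in EV replicate 3 as in the other EV libraries.

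The libraries labelled KIF20A OE held another HOX code altogether, with members of all 4 clusters at high level and HOXD1 low. Of 38 members listed (HOXB1 was not), 35 were expressed and 30 had a mean of at least 10 CPM. Fitted with no minimum, 37 of the 38 were higher and HOXD1 lower by limma, where 37.9% of 23792 genes were higher. Genes at 0 in all libraries are not listed in this arm. The 10 members with 0 EV reads were thus listed only through the labelled KIF20A OE libraries and could only come out higher. With the minimum of 1 CPM, 36 were tested, 35 higher and 1 lower, beside 69.7% of 15265 genes called, 46.2% higher and 23.4% lower, and 72.2% at an unadjusted p under 0.05. Of these 36, 24 had an EV mean under 1 CPM and passed the minimum only through the labelled KIF20A OE libraries, so their direction was fixed by the filter. The same holds the other way for HOXD1, which passed only through EV. No p-value is given for these members. The 11 members with a mean of at least 1 CPM in both groups were all higher. No share over all genes with such means is given here, so this count is a description.

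The groups overlapped for 0 of the 36 members, a count that the filter also shaped, and 74.1% of all genes tested also did not overlap. With no minimum the median log2 fold change of the 38 members was 4.37, against 0.21 for all genes. The median log2 fold change of the 36 was 4.41 on the log2(CPM + 1) scale, against 0.37 for all genes. Rescaling by the median of ratios took the latter to 0.03, with 5129 genes higher and 5007 lower, and the former to 4.18, with the 35 and 1 as before. Of the 36, 10 had 0 reads in all EV libraries. With these set to the floor of 3 reads over the EV group, the median log2 ratio without a pseudocount was 6.81. IRS4, CD44 and the other markers above moved with every value of this comparison.

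HOXD showed the steepest pattern. HOXD13 had 0 reads in each EV library, whereas the other 3 libraries held 159, 163 and 142 CPM (log2 fold change 7.28 ± 0.16 SE), at least 3024-fold higher. HOXD11, a kidney and forearm gene, was at 0 and at 112, 82.3 and 82.4 CPM (6.53 ± 0.19 SE), at least 1802-fold higher. HOXD10, expressed in the hindlimb and lost in invasive breast cancers, was at 0.190, 0.0967 and 0 CPM and at 116, 73.8 and 72.6 CPM (6.30 ± 0.23 SE). HOXD10 and HOXD11 share exon bases on the same strand.

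Genes near the 3′ end of the cluster rose less, and HOXD1 fell. HOXD4 was at 3.71, 5.07 and 4.82 CPM with EV and 12.0, 15.1 and 8.46 CPM in the other libraries, the smallest rise among the HOXD members above the minimum (1.19 ± 0.24 SE, adjusted p = 0.0024). HOXD1 fell from 14.6, 8.07 and 21.9 CPM to 0.376, 0.451 and 0.0535 CPM, 50.6-fold lower by the means (-3.53 ± 0.34 SE). Per kb of exon, HOXD1 was the highest HOX gene of the EV cells at 7.88 CPM, before HOXB9 at 6.86, and HOXD13 was at 0. As reads of HOXD1 and HAGLR may not be separable, this rank of HOXD1 and the size of its fall are uncertain. In the libraries labelled KIF20A OE the level per kb was 0.156 at HOXD1, 3.14 at HOXD3, 10.4 at HOXD4, 6.72 at HOXD8, 24.6 at HOXD9, 35.2 at HOXD10, 43.5 at HOXD11 and 64.0 at HOXD13. HOXD12, at 0.227, and HOXD8, below HOXD4, broke this order. Of the genes whose windows are printed above, HOXD1 fell and HOXD4, HOXD13 and HOXA13 rose. A link to CG content was not tested.

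In HOXA, 10 of the 11 members had an EV mean of at most 0.211 CPM. HOXA5 rose from 0.333, 0.242 and 0.0588 CPM to 78.3, 116 and 108 CPM (6.38 ± 0.21 SE). HOXA10 rose from 0.0476, 0 and 0.0588 CPM to 48.0, 79.8 and 73.8 CPM (6.01 ± 0.23 SE), on 2 EV reads, a ratio of 2022 with a 95% counting interval of 559 to 16706. HOXA9 rose from 0, 0 and 0.0588 CPM to 59.3, 77.0 and 51.0 CPM (5.94 ± 0.21 SE), on 1 EV read. HOXA13, the HOXA gene in use with EV at 1.52, 0.822 and 2.70 CPM, reached 34.2, 70.8 and 59.2 CPM, 32.5-fold higher.

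In HOXB, the largest level was that of HOXB9, which was in use in both groups. It went from 18.8, 9.91 and 24.6 CPM to 364, 430 and 296 CPM, 20.5-fold higher, and at 141 CPM per kb it was the highest HOX gene of these libraries. HOXB13, the prostate gene set apart from the rest of its cluster, was at 0 with EV and at 48.8, 54.8 and 49.0 CPM (5.69 ± 0.17 SE), at least 995-fold higher. HOXB6 reached 107, 90.7 and 91.4 CPM (5.36 ± 0.43 SE) and HOXB2 44.6, 41.3 and 40.3 CPM from 0.0952, 0.0967 and 0.176 CPM (5.26 ± 0.17 SE). Without EV replicate 3 the log2 fold change of HOXB6 was 5.93.

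In HOXC, HOXC11 was at 0 with EV and at 42.0, 34.5 and 37.8 CPM (5.28 ± 0.18 SE), at least 745-fold higher. HOXC4 rose from 0.524, 0.193 and 0.647 CPM to 55.2, 51.6 and 53.2 CPM (5.24 ± 0.19 SE) and HOXC10 from 0.190, 0 and 0.823 CPM to 45.5, 49.3 and 48.5 CPM (5.23 ± 0.25 SE). HOXC6, per kb the highest HOXC gene with EV at 0.853 CPM, beside 0.845 for HOXC8, went from 1.76, 3.38 and 3.70 CPM to 41.4, 33.4 and 34.4 CPM. HOXC8 was among the smallest rises, from 1.52, 1.01 and 3.59 CPM to 11.6, 7.98 and 9.42 CPM (1.89 ± 0.32 SE). HOXC5 stayed low in both groups, at a mean of 0.123 and 0.556 CPM, and so did HOXD12, at 0.0392 and 0.584 CPM.

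**Figure D4:**
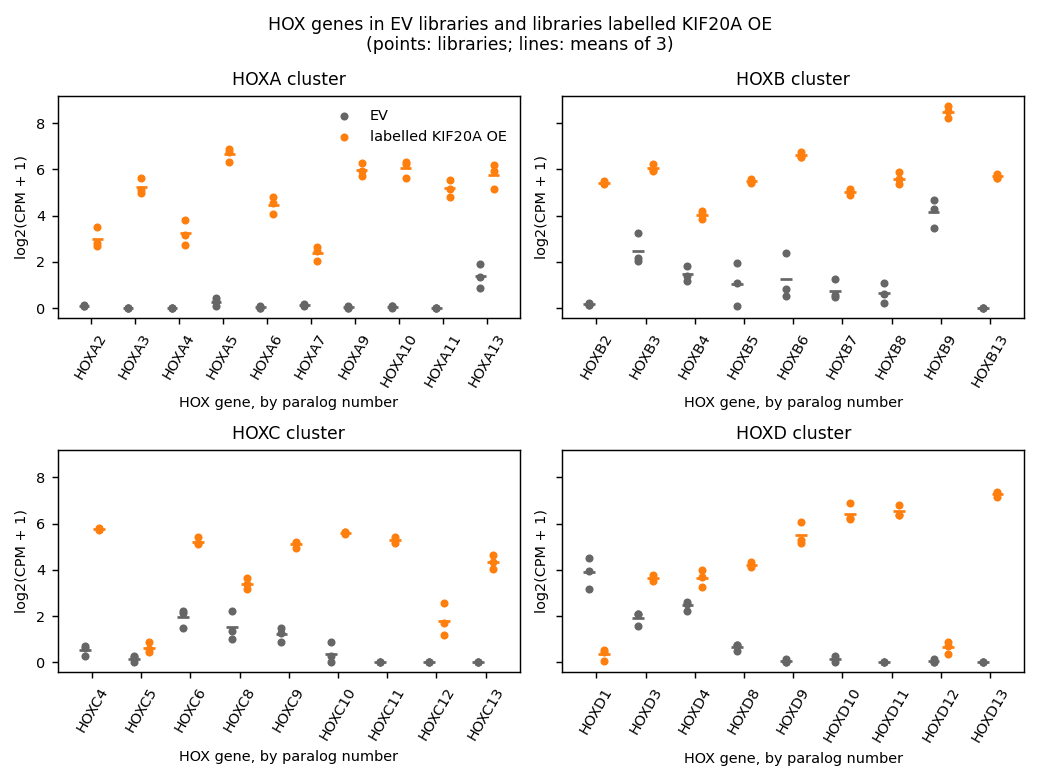
Log2(CPM + 1) of the listed HOX genes reported here in EV libraries (grey) and libraries labelled KIF20A OE (orange), by cluster and paralog number, with points for libraries and lines for means of 3. Orange lies above grey for each gene but HOXD1, and in HOXD the orange mean climbs from 0.293 CPM at HOXD1 to 155 CPM at HOXD13 with HOXD12 low.

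By position, paralogs 9 to 13 held 60.8% of the HOX level per kb in the libraries labelled KIF20A OE, paralogs 5 to 8 27.1% and paralogs 1 to 4 12.1%. With EV the anterior paralogs 1 to 4 held 53.5%, mostly through HOXD1, whose reads may include those of HAGLR. With sgCtrl paralogs 1 to 4 held 30.9% and paralogs 9 to 13 64.4%, mostly through HOXB9.

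Partners and surroundings of the HOX genes were read from lists. Of all genes tested, 7.15% were called in Hs578T, 2.83% in HCC70 and 0.0% in the sgRNA arm. At an unadjusted p under 0.05 by limma stood 22.5%, 23.7% and 7.0%. The TALE proteins (PBX, MEIS and PKNOX) bind DNA together with HOX proteins. Of 9 TALE genes tested in Hs578T, 0 were higher and 1 was lower: MEIS3, at 17.1, 17.6 and 19.8 TPM in non-BCSCs and 13.6, 15.0 and 13.0 TPM in BCSCs (log2 fold change -0.37 ± 0.07 SE, adjusted p = 0.028). The call was lost with no minimum, with the median of ratios and when any library but BCSC replicate 2 was left out, with adjusted p of up to 0.10. In HCC70 0 of 7 were called by limma, with 0 at an unadjusted p under 0.05, and in the sgRNA arm 0 of 6, with 0. Against EV, the libraries labelled KIF20A OE had 6 of 9 higher and 0 lower, a share called near the 69.7% of all genes. Of the 7 with a mean of at least 1 CPM in both groups, 4 were higher, again without a share over all such genes. MEIS1 rose by 2.38 on the log2 scale. MEIS3 and PKNOX2, with EV means under 1 CPM, were 3.88 and 3.74 higher.

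Long noncoding RNAs are also transcribed from the clusters. Of those tested, 0 of 4 were called in Hs578T (1 at an unadjusted p under 0.05), 0 of 3 in HCC70 (0) and 0 of 1 in the sgRNA arm (0). Against EV, the libraries labelled KIF20A OE had 11 of 12 higher and 1 lower, beside 46.2% and 23.4% of all genes. Each of the 11 had an EV mean under 1 CPM, so its direction was fixed by the minimum for testing and the count is a description. HOTAIRM1, which lies in HOXA, was at 31.6, 42.7 and 36.6 CPM against 3 EV reads in all (5.16 ± 0.19 SE). HOXA11-AS, HOTAIR, which lies in HOXC, and HOXD-AS2 had 0 EV reads and were at least 636-fold, 478-fold and 322-fold higher. HAGLR, named for its overlap with HOXD1 after its values were seen, was the 1 that fell, to 5.64, 9.78 and 7.82 CPM (-2.29 ± 0.24 SE, adjusted p = 5.61e-05).

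Of the genes at the edges of the clusters, 5 were tested in each comparison. In Hs578T 0 were called, beside 7.15% of all genes, and 3 had an unadjusted p under 0.05, beside 22.5%. In the sgRNA arm 0 were called, beside 0.0%, and 1 had an unadjusted p under 0.05, beside 7.0%. In HCC70 1 was called, beside 2.83% of all genes. It was CALCOCO1 beside HOXC, higher in BCSCs, at 21.7, 22.0 and 22.1 TPM and 27.6, 26.9 and 25.8 TPM (0.27 ± 0.05 SE, adjusted p = 0.046). That call was lost when any 1 library was left out, with no minimum, with the median of ratios and with the replicate block (adjusted p = 0.066 to 0.20). In Hs578T CALCOCO1 lay the other way, at 30.9, 31.9 and 30.7 TPM in non-BCSCs and 25.8, 21.8 and 27.4 TPM in BCSCs, without overlap (-0.31 ± 0.08 SE, adjusted p = 0.057). SMUG1, a DNA repair gene near HOXC, was higher in the libraries labelled KIF20A OE at 37.4, 35.0 and 33.8 CPM against 7.24, 17.4 and 8.53 CPM (1.69 ± 0.29 SE, adjusted p = 0.00095). SKAP2 beside HOXA and MTX2 and LNPK beside HOXD did not pass (adjusted p = 0.058, 0.065 and 0.35).

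Of the regulators of HOX transcription, 0 of 8 were called in Hs578T (0 at an unadjusted p under 0.05), 0 of 8 in HCC70 (1) and 0 of 8 in the sgRNA arm (0). Against EV, the libraries labelled KIF20A OE had 5 of 9 higher and 0 lower, where 46.2% of all genes were higher. Of the 8 with a mean of at least 1 CPM in both groups, 4 were higher, again without a share over all such genes. CDX2, an intestinal homeobox factor that acts on HOX genes, was at 0 with EV and at 38.4, 38.7 and 37.7 CPM, at least 749-fold higher and tested only through the group where it was high. PSIP1 and MEN1, which bind KMT2A, and the histone methyltransferase DOT1L rose by 1.16, 1.08 and 0.88 on the log2 scale. The Polycomb genes EZH2, EED and SUZ12 did not pass (adjusted p = 0.20, 0.77 and 0.79).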

How the data were processed

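Poly-A RNA of 24 libraries was sequenced from stranded, paired-end libraries, and the authors deposited 1 table of values per gene for each sorted line and each MDA-MB-231 arm. The submitters' processing notes name HISAT2 2.0.5, featureCounts 1.5.0-p3 and GRCh38. For the sorted lines the authors gave TPM. The deposited sgRNA table, called CPM by the authors, holds a signal of reads divided by a factor per library. The deposited overexpression table holds CPM. The sorted and overexpression tables list only genes above 0 in a library. Whole reads, recovered for 100% of rows from ratios within genes or from the step between values, gave depths, bounds and the count tests, and for TPM may be too low by a common divisor. Intervals and floors cover counting error only.

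Values were tested by limma 3.58.1 (R 4.3.3) with a trend on log2(value + 1) within each table, two-sided, for genes averaging 1 or more in the 6 samples, with Benjamini-Hochberg adjustment over all genes tested. A fold change on this scale understates that of low genes. All adjusted p-values are from limma unless another tool is named. Alternatives were DESeq2 1.42.0 and edgeR 4.0.16 fitted to the recovered reads, a pseudocount of 0.1, no minimum, the median of ratios, a replicate block, each library left out, and thresholds of 0.5 and 5 for the HOX code. The scripts were tested on simulated data. Every HOX gene was accounted for, and values per library were given for called members of the sorted lines and sgRNA arm, the highest member of each cluster and group, and the 3 largest rises and falls per cluster in the libraries labelled KIF20A OE, with up to 4 called genes of each other list. Members outside this rule served as neighbors or near misses. Some genes are counted but not reported here by name, nor drawn. Members and lists were chosen with earlier results of these data known. Replicate numbers did not pair the samples. Levels per kb used exon lengths of GENCODE 44. Of the sample columns 0 were left unused. Older gene names were matched through RefSeq synonyms. Summaries were made in Python 3.11.15 with pandas 2.3.3, numpy 2.4.6 and scipy 1.17.1, and figures drawn with matplotlib 3.10.9.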

Additional observations from a re-analysis of the deposited data

How the results depend on the processing

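In the libraries labelled KIF20A OE, 36 HOX genes were called under every alternative but no minimum, with 38, and 36 when each library was left out. Of the 36, 24 passed the minimum only through these libraries and HOXD1 only through EV. Their direction was fixed in those fits too, so the steady count is a description. In the main fit 69.7% of all genes were called. By contrast 0 HOX genes were called in HCC70 and in the sgRNA arm under every alternative. The 1 call of Hs578T went to 2 with edgeR (HOXB9 and HOXC4), to 0 with DESeq2, with the replicate block and with each library left out (range 0 to 0), and with no minimum it was HOXB9, not HOXC4. The block on replicate number changed no other HOX count. The interaction gave 1 HOX gene with no minimum, HOXB9 (log2 difference -0.39, adjusted p = 0.029), and 0 otherwise. With a minimum mean of 5 the code held 9 genes in Hs578T non-BCSCs, 10 in BCSCs, 10 and 11 in HCC70, 1 with sgCtrl, 1 with KIF20A sg1 and 2 with EV. In the sgRNA arm, with single libraries left out, HOXB9 ranged from -0.42 (without KIF20A sg1 replicate 3) to -0.026 (without KIF20A sg1 replicate 2) and HOXD4 from -0.11 to -0.016 (without the same libraries). The log2 fold change of HOXB3 ranged from -0.023 (without sgCtrl replicate 3) to 0.40 with single libraries left out, and that of HOXD3 from -0.087 (without KIF20A sg1 replicate 3) to 0.11, and was -0.039 without sgCtrl replicate 1. In the libraries labelled KIF20A OE, log2 fold changes depend on the processing. Over all alternatives that of HOXD1 ranged from -6.00 to -3.21, and with single libraries left out from -3.88 to -3.21. For HOXD13, with 0 EV reads, these ranges were 7.08 to 14.4 and 7.24 to 7.34. The cause of these shifts was not tested, apart from fewer samples where a library was left out. Genes of a few reads, such as most HOXC genes with sgCtrl, are measured imprecisely.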
